A study of Mus musculus with 6 samples.

Results

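The insulin, growth hormone and IGF axis was followed in mouse liver through 10 genes, chosen by name from an FPKM table of 16135 genes: the insulin receptor gene Insr, the insulin receptor substrates Irs1 and Irs2, the growth hormone receptor gene Ghr, the feedback inhibitor Socs2, the hormone gene Igf1, its serum carrier subunit Igfals, and the binding proteins Igfbp1, Igfbp2 and Igfbp4. All 10 were in the table, and all 10 had a mean of at least 1 FPKM and were tested among 9818 genes. FPKM is a fragment count scaled to gene length and library total. The groups were livers of ACSS2-flox mice, which carry a floxed Acss2 gene and served as the control (n = 3 libraries), and of ACSS2-HKO mice, described by the submitters as a hepatocyte-specific knockout of ACSS2 (n = 3). ACSS2 makes acetyl-CoA from acetate, a product of ethanol breakdown. Both genotypes had been fed the Lieber-DeCarli ethanol liquid diet over 10 days and were then given 1 ethanol binge, so no group without ethanol was compared. The sources used here do not give the Cre driver, age, sex or strain. The labels do not tie a library to its own animal, and p-values therefore measure the spread between these libraries, which may be technical.

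Insulin and growth hormone reach the liver by separate routes that meet at IGF1. The insulin receptor is a tyrosine kinase that passes its signal through IRS1 and IRS2 to the kinase AKT, which keeps the transcription factor FOXO1 out of the nucleus, and FOXO1 drives genes of the fasting liver, Igfbp1 and Irs2 among them. The growth hormone receptor acts through JAK2 and STAT5, which switch on Igf1, Igfals and Socs2. The liver is the main source of circulating IGF1, most of which travels in a complex with IGFBP3 and the IGFALS protein, and inflammation of the liver is known to blunt the growth hormone signal.

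The promoter of Igfbp1 is the textbook case of insulin control, and it is shown here with those of Irs2 and G6pc. These 3 genes had the same lowest libraries, as did Insr, Irs1, Pdk4 and Mttp, whose promoters are not printed. G6pc encodes the glucose-6-phosphatase subunit that releases glucose, lies on the list of insulin-repressed genes, and was picked, like this trio, after the values were seen. Each window runs from 250 bases before to 50 bases after the RefSeq start site (GRCm38.p6, printed on the gene's own strand). Capitals mark the letters CAAAACA, read on either strand as CAAAACA or TGTTTTG, and TTATTTTG, which together form the insulin response element of Igfbp1. The windows are chr11:7197537-7197836 (plus strand) for Igfbp1, chr8:11008880-11009179 (minus strand) for Irs2 and chr11:101367466-101367765 (plus strand) for G6pc.
Igfbp1: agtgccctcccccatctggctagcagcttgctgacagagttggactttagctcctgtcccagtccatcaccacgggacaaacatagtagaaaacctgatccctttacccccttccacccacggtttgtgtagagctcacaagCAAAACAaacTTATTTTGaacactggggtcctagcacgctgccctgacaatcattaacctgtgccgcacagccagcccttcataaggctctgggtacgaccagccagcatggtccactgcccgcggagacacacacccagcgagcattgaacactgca
Irs2: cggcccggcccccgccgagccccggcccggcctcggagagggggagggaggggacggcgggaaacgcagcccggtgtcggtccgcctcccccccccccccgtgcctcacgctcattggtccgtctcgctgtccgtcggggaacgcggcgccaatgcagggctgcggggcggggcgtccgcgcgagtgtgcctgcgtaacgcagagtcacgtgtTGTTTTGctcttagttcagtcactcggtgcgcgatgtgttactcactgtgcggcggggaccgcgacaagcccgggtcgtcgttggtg
G6pc: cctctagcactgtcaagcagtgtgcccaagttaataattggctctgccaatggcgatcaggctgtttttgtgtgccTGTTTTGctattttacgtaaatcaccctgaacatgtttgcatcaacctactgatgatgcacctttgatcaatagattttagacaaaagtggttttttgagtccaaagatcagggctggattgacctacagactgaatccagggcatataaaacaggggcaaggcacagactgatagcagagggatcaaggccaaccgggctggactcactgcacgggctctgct

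In Igfbp1 the 2 runs lay side by side, CAAAACA at -108 to -102 and TTATTTTG at -98 to -91 from the start site, with no overlap. In Irs2 and G6pc the letters were on the opposite strand, at -37 to -31 and at -174 to -168. Irs1 held 2 copies, at -111 to -105 and -32 to -26. Of all 32851 promoter windows of the same length, 6.28% held CAAAACA and 1.66% TTATTTTG on either strand. The FOXO letters GTAAACA, in 3.65% of windows, were found in 1 of the 3 windows of Igfals. The STAT5 letters TTCNNNGAA, in 8.3% of windows, were found in 2 of the 3 windows of Igfals, as TTCTCAGAA and TTCCTAGAA, the latter at -58 to -50 of its own start site. None of the matches overlapped another. They are letters, not measured binding, and the windows of Igf1, Ghr, Igfbp2 and Igfbp4 held none of the 4 runs. RefSeq windows were matched for 8 of the 10 genes, all but Insr and Socs2.

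The libraries differed in ways that touch these genes. Fragment totals recovered from the values ran from 33717125 to 39474527. On the first principal component (47.2% of the variance) 1 library of each genotype was distant, ACSS2-flox replicate 1 at -47.7 and ACSS2-HKO replicate 3 at 27.6, with the other libraries between 2.5 and 8.5. In ACSS2-flox replicate 1 the longest 10% of genes read low against the mean of the 6 libraries, by a median log2 of -0.42. In the other libraries this median lay between 0.05 and 0.13. The median FPKM of the genes tested was 5.2 in ACSS2-flox replicate 1, against 6.67 to 7.09 in the others. Its 10 sinusoidal endothelial markers summed to 48.0 FPKM, against 152 to 234 FPKM in the others. The part of those cells in the axis genes was not tested. Acss2 (chromosome 2, 155517948 to 155585724) read 87.8, 61.5 and 58.5 FPKM in the ACSS2-flox livers and 50.6, 38.4 and 45.7 FPKM in the ACSS2-HKO livers, lower but not absent in this whole-tissue RNA. The hepatocyte list was strongly expressed, with a summed FPKM of 67595 to 104815 in the ACSS2-flox and 58670 to 67736 in the ACSS2-HKO libraries. Of 12 neutrophil markers 4 were tested, Retnlg and Csf3r among them only through their ACSS2-HKO level. The sum of the list was 8.12 to 17.9 FPKM in the ACSS2-flox libraries, with Ly6g and Mpo at 0 in all 3, and 39.3, 54.9 and 360 FPKM in ACSS2-HKO replicates 1, 2 and 3. All 12 macrophage markers were positive, with sums of 466 to 756 and 882 to 2180 FPKM. In whole liver, fewer cells of a type and less RNA per cell cannot be told apart.

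Across the axis, Ghr and Igfbp2 were the genes whose ACSS2-HKO libraries all lay below every ACSS2-flox library, at 0.611 and 0.630 of the control mean. Igf1 had a ratio of 0.672 with overlapping groups. The insulin receptor gene and its substrates showed no detectable genotype difference, and Igfbp1 and Irs2 varied several-fold between libraries of 1 genotype. By limma on log2(FPKM + 1), adjusted with Benjamini-Hochberg over all genes, 0 of 10 axis genes passed a threshold of 0.05, as did 0 of 9818 genes tested (0.0%). At an unadjusted p under 0.05, 2 of the 10 (Ghr and Igfbp2) were lower, against 1.5% of all genes, and 0 were higher, against 6.09%. Voom on the recovered fragments also gave 0 genes after adjustment and the count of 2 without it. Groups did not overlap for the same pair, lower, against 2.94% of all genes, and for no axis gene higher, against 12.5%. The median log2 fold change was -0.09 over the 10 genes and 0.10 over all genes tested, and values relative to that median are given where they bear on a direction. That general shift depended on the scaling, with a median over all genes of -0.007 after median-ratio scaling, -0.017 after quantile normalization and -0.013 after removal of the gene length trend. Among genes with an unadjusted p under 0.05 the higher share was 80.3% on the deposited scale, 55.1% with median-ratio scaling, 52.3% with quantile normalization and 50.5% with the length trend removed. The lower genes numbered 147 on the deposited scale and 302, 357 and 384 under those settings. The background of 1.5% lower, used here and below, is thus that of the deposited scale. The share of all genes with a positive or negative sign was not counted, so sign counts here and below have no such background. Genes of a list were read in the same libraries and are not independent.

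**Figure D1:**
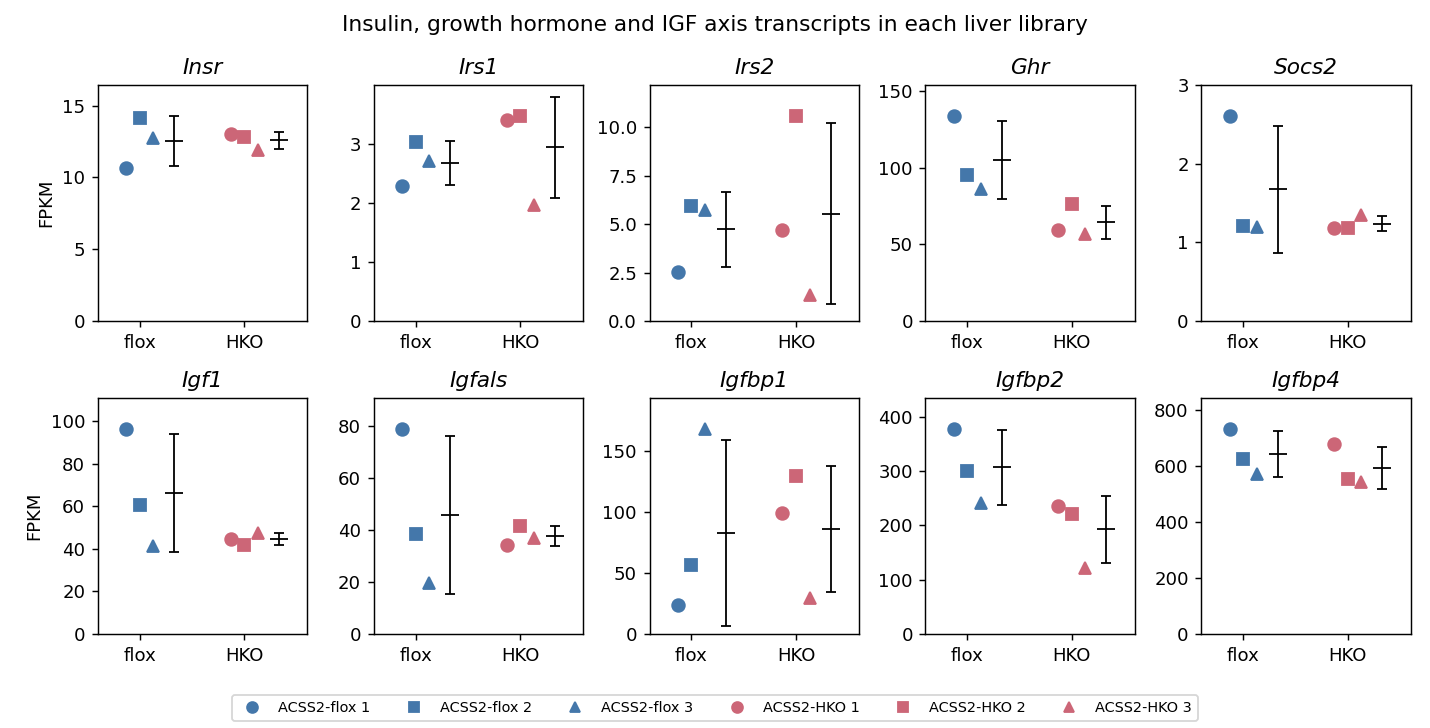
FPKM of each axis gene (y axis, from 0) in the 3 ACSS2-flox (blue) and 3 ACSS2-HKO (red) libraries, with the marker shape giving the replicate and the bar the mean and SD of a group. The groups separate for Ghr and Igfbp2 alone, and ACSS2-flox replicate 1 is the highest library for 6 of the 10 genes, a share not counted over all genes.

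The receptor for growth hormone showed the clearest separation. Ghr (chromosome 15, 3317760 to 3583492) read 134, 95.3 and 86.1 FPKM in the ACSS2-flox livers and 59.5, 76.5 and 56.8 FPKM in the ACSS2-HKO livers, counted from 9509 to 20377 fragments. Every ACSS2-HKO library was below the lowest ACSS2-flox library, and the spread within ACSS2-flox came mostly from its replicate 1. The means were 105 ± 25.3 and 64.3 ± 10.7 FPKM (SD, n = 3). On the log2(FPKM + 1) scale the difference, ACSS2-HKO minus ACSS2-flox, was -0.69 ± 0.22 (SE), with a 95% interval of -1.20 to -0.18, or -0.79 relative to the median of all genes. Its limma p was 0.014 unadjusted and 0.637 adjusted, and the exact two-sided permutation test gave 0.1, which is the lowest p this number of libraries can reach. Ghr stayed negative when single libraries were left out, from -0.818 to -0.502. It read -0.42 without both distant libraries, a change of more than 1.5 times, with an unadjusted p of 0.0548. Of 9 hepatocyte markers 8 were also negative (median -0.31 in log2), with 0 at an unadjusted p under 0.05 by limma. Their median against the ACSS2-flox mean was 0.27, -0.10 and -0.15 in the ACSS2-flox libraries. In the ACSS2-HKO libraries it was -0.14, -0.29 and -0.37, so ACSS2-flox replicate 3 lay within the ACSS2-HKO range. The part of these markers in the Ghr value was not tested.

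The next steps of the growth hormone route were read through its target genes. Igf1 (chromosome 10, 87858265 to 87937042) read 96.6, 60.9 and 41.6 FPKM in the ACSS2-flox livers and 44.6, 41.9 and 47.3 FPKM in the ACSS2-HKO livers. The 3 ACSS2-HKO libraries were close together and lay near the lowest ACSS2-flox library, while ACSS2-flox itself spread 2.32-fold. The means were 66.3 ± 27.9 and 44.6 ± 2.73 FPKM (SD, n = 3). Their log2 difference of -0.48 ± 0.29 did not pass the test (exact permutation p = 0.4, p = 0.697 from limma after adjustment). Without ACSS2-flox replicate 1 the value was -0.173, and without ACSS2-flox replicate 3 it was -0.771.

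Igfals, whose product locks IGF1 and IGFBP3 into the long-lived serum complex (chromosome 17, 24865997 to 24882010), read 79.0, 38.4 and 19.5 FPKM in the ACSS2-flox livers and 34.1, 41.6 and 37.1 FPKM in the ACSS2-HKO livers. The ACSS2-flox libraries stood in the same order as for Igf1 and enclosed all ACSS2-HKO libraries. At -0.06 ± 0.42 the log2 fold change had a 95% interval of -1.03 to 0.91, wide in both directions. Without ACSS2-flox replicate 1 it was 0.438 and without ACSS2-flox replicate 3 it was -0.545.

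Socs2, the STAT5 target that shuts the growth hormone receptor off (chromosome 10, 95385362 to 95417180), read 2.61, 1.21 and 1.20 FPKM in the ACSS2-flox livers and 1.18, 1.18 and 1.35 FPKM in the ACSS2-HKO livers. Apart from ACSS2-flox replicate 1 the libraries were nearly equal. Its log2 fold change was -0.22 ± 0.22 with all libraries and 0.02 without ACSS2-flox replicate 1. Its low FPKM rests on 501 to 1056 fragments spread over the 12005 bases by which the authors divided, the longest length among the axis genes. ACSS2-flox replicate 1 was thus the highest library for Ghr, Igf1, Igfals and Socs2. The share of all genes that were highest in this library was not counted. Cish, on the wider growth hormone list below, was highest in ACSS2-flox replicate 3. It read 4.20, 3.56 and 12.0 FPKM in the ACSS2-flox livers and 3.75, 4.43 and 5.43 FPKM in the ACSS2-HKO livers. Igf1 and Socs2 are counted over long genes, which as a group read low in ACSS2-flox replicate 1, where both genes were highest. With the length trend removed, their log2 fold changes were -0.596 and -0.317. They were -0.486 and -0.208 when that correction kept each library's mean. The part of gene length in the level of that library was not tested.

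**Figure D2:**
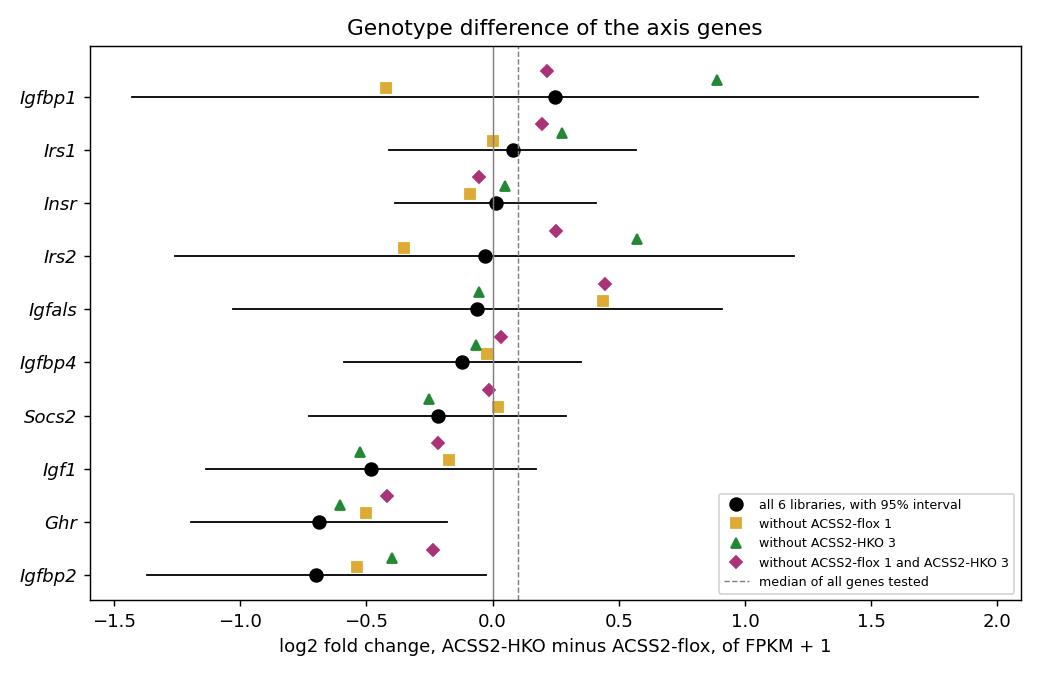
Log2 fold change of FPKM + 1 (x axis, ACSS2-HKO minus ACSS2-flox) for each axis gene, with the 95% limma interval as a black line and coloured points for fits that omit ACSS2-flox replicate 1, ACSS2-HKO replicate 3 or both; the dashed line is the median of all genes tested. The intervals of Ghr and Igfbp2 lie below 0, and the point of Igfbp1 moves from -0.424 to 0.889 depending on which library is left out.

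The wider growth hormone list was written from textbook knowledge, with earlier results of these data known. It held 17 tested genes, of which 13 were positive and 4 negative. The median in log2 was 0.22 (0.10 over all genes). No member passed adjustment by limma. Before adjustment 2 of the 17 had a p under 0.05, both higher, against 6.09% of all genes. They were Socs3, the cytokine-induced inhibitor of JAK kinases, and Ptpn6, a phosphatase of blood cells. Socs3 read 1.61, 1.95 and 2.17 FPKM in the ACSS2-flox livers and 3.96, 5.62 and 6.28 FPKM in the ACSS2-HKO livers, a log2 fold change of 1.10 ± 0.20. The 3 ACSS2-HKO libraries were all above the ACSS2-flox range. Onecut1, a liver transcription factor, and Sirpa, a receptor of myeloid cells, had log2 fold changes of 0.74 ± 0.35 and 0.87 ± 0.41. In ACSS2-HKO replicate 3, where the neutrophil and macrophage sums were highest (360 and 2180 FPKM), Ptpn6 read 22.7 FPKM and Sirpa 21.7 FPKM. The part of those cells in the list was not tested. The median of the list was -0.006 without ACSS2-flox replicate 1.

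Liver genes that follow the male or female pattern of growth hormone release gave a second view of the pathway. The female-biased list read lower, with 15 of 16 tested members negative, a log2 median of -0.53, and 0 past adjustment by limma. The median over all genes tested was 0.10, and the share of negative genes was not counted. Before adjustment 3 members were lower at a p under 0.05, against 1.5% of all genes. The hepatocyte markers were lower in mean too (8 of 9 negative, median -0.31), and their part in the list was not tested. Cyp2c40, a cytochrome P450, read 331, 207 and 172 FPKM in the ACSS2-flox livers and 101, 162 and 88.4 FPKM in the ACSS2-HKO livers. Hao2, a hydroxy acid oxidase, read 12.1, 18.8 and 16.1 FPKM and then 6.41, 8.40 and 0.953 FPKM. Both had groups that did not overlap. The sulfotransferase genes Sult3a1 and Sult2a1 had log2 fold changes of -1.48 ± 0.55 and -0.53 ± 0.28. Per library the median of the list against the ACSS2-flox mean stood at 0.38, 0.18 and -0.39 for the ACSS2-flox libraries against -0.33, -0.48 and -1.12 for the ACSS2-HKO libraries, so ACSS2-flox replicate 3 lay within the ACSS2-HKO range. The median was -0.823 without ACSS2-flox replicate 3 and -0.25 with both distant libraries left out.

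The male-biased list had 12 genes in the table but only 6 above the filter, where all 16 of the female-biased list were tested. Of the 6, 3 were positive and 3 negative, with a median of 0.01. The steroid and fatty acid hydroxylase gene Cyp4a12a was at or near 0 in both groups, with 0 fragments in each ACSS2-flox library and 7, 0 and 1 in the ACSS2-HKO libraries, and the male marker Hsd3b5 read 0.31 FPKM at most. Of the tested members, Nudt7, a peroxisomal hydrolase of coenzyme A, had a log2 fold change of -0.59 ± 0.30 and Cyp2d9 one of 0.91 ± 0.53. The adipokine gene Serpina12 and Selenbp2 followed at -0.32 ± 0.34 and 0.22 ± 0.58, and 0 of the 6 had an unadjusted p under 0.05 in limma.

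Igfbp4 and Igfbp2 were the most abundant transcripts among the 10 axis genes. Per length and over all 6 libraries, Igfbp4 was first with a mean of 617 FPKM, ahead of Igfbp2, which ranged from 122 to 378 FPKM, and this order held in each library. Ghr (84.7), Igfbp1 (84.5), Igf1 (55.5) and Igfals (41.6 FPKM) followed, with ranges that overlapped one another. Insr averaged 12.6 FPKM, and its highest library (14.2 FPKM) lay below the lowest of Igfals. Irs2 (5.14), Irs1 (2.81) and Socs2 (1.46 FPKM) had the lowest means, again with overlapping ranges between neighbours.

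Igfbp2, a carrier whose liver transcript is known to respond to fasting and leptin (chromosome 1, 72824503 to 72852474), read 378, 300.2 and 242 FPKM in the ACSS2-flox livers and 236, 221 and 122 FPKM in the ACSS2-HKO livers. The groups did not overlap, although the lowest ACSS2-flox and the highest ACSS2-HKO library nearly met, and ACSS2-HKO replicate 3 was well below the rest. The means were 307 ± 68.4 and 193 ± 61.9 FPKM (SD, n = 3). Its log2 fold change was -0.70 ± 0.29 with a 95% interval of -1.37 to -0.03, or -0.80 relative to all genes (limma p = 0.0433 unadjusted and 0.649 adjusted, exact permutation p = 0.1). It read -0.4 without ACSS2-HKO replicate 3, -0.536 without ACSS2-flox replicate 1 and -0.237 without both, and the unadjusted p was 0.138, 0.133 and 0.237 in turn. Without ACSS2-flox replicate 2 and without the filter the p was 0.0812 and 0.0631. The hepatocyte markers named above were lower in mean as well, and their part in Igfbp2 was not tested.

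Igfbp4, an inhibitor of local IGF action (chromosome 11, 99041244 to 99054392), was the steadiest of the carriers. It read 733, 625 and 571 FPKM in the ACSS2-flox livers and 677, 552 and 544 FPKM in the ACSS2-HKO livers. The groups overlapped, and the log2 fold change of -0.12 ± 0.21 had a 95% interval of -0.59 to 0.35 and a positive sign, 0.018, under quantile normalization.

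Igfbp1, the carrier that insulin represses within hours and that binds free IGF1 in the fasted or stressed state, was the most variable of the secreted proteins (chromosome 11, 7197782 to 7202546). It read 23.4, 56.4 and 169 FPKM in the ACSS2-flox livers and 99.5, 130 and 29.2 FPKM in the ACSS2-HKO livers. The values spread 7.21-fold within ACSS2-flox and 4.44-fold within ACSS2-HKO, and the 2 lowest were those of the distant libraries, 1 of each genotype. The means of 82.8 ± 76.1 and 86.2 ± 51.6 FPKM (SD, n = 3) were nearly equal. Their log2 fold change of 0.25 ± 0.73 had a 95% interval of -1.43 to 1.92, so that a difference of 2-fold in either direction lies inside it.

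As a share of the summed FPKM of Igfbp1 to Igfbp7, which does not depend on scaling between libraries, Igfbp4 made up 52.4% to 66.8% in the 6 libraries. Igfbp2 gave 31.4%, 28.0% and 22.2% for the ACSS2-flox libraries and 20.9%, 22.4% and 15.0% for the ACSS2-HKO libraries, so that on this measure ACSS2-HKO replicate 2 passed ACSS2-flox replicate 3 and the groups overlapped. Igfbp1 ran from 1.94% in ACSS2-flox replicate 1 to 15.5% in ACSS2-flox replicate 3. The sum itself averaged 1123 ± 71.9 FPKM for the ACSS2-flox group against 977 ± 157 FPKM for the ACSS2-HKO group (SD, n = 3). FPKM counts transcripts per length and not protein.

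**Figure D3:**
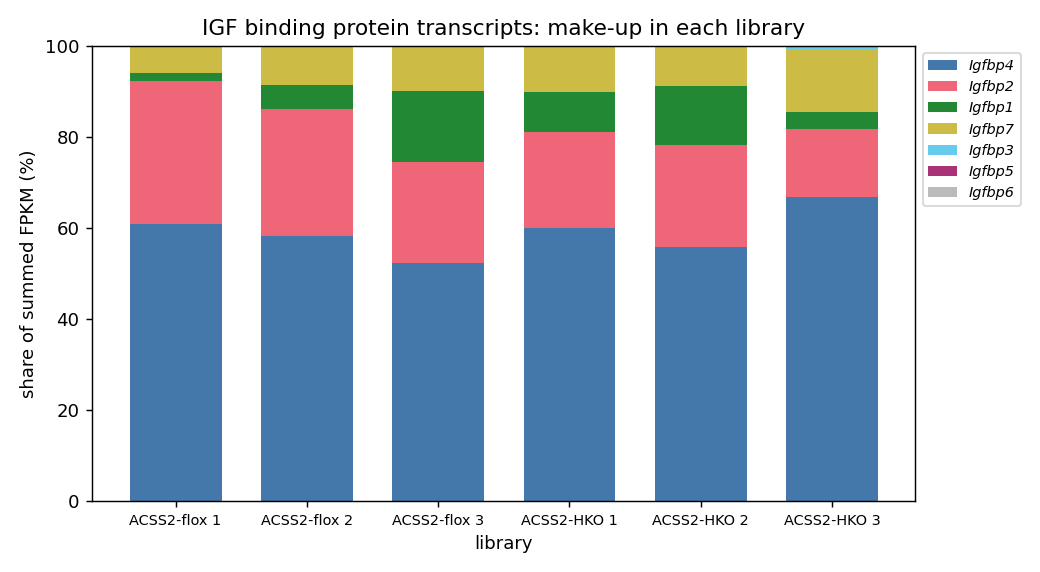
Share of each IGF binding protein gene in the summed FPKM of Igfbp1 to Igfbp7 (y axis, percent) for each library. Igfbp4 is the largest part in all 6 libraries, and the Igfbp1 part (green) is widest in ACSS2-flox replicate 3 (15.5%) and narrowest in ACSS2-flox replicate 1 (1.94%).

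The other IGF genes were mostly scarce in this tissue. Of 14 listed ligands, receptors and carriers 13 were in the table and 4 passed the filter, with 0 past adjustment by limma. Igfbp5, made by matrix-forming cells, read 1.10, 0.785 and 0.776 FPKM in the ACSS2-flox livers and 1.66, 1.72 and 2.14 FPKM in the ACSS2-HKO livers, or 0.59 ± 0.17 in log2 (limma, adjusted p = 0.607). It passed the filter only through its ACSS2-HKO level, so its direction is no support for a difference. Summed stellate cell and fibroblast markers were 190 to 256 FPKM in the controls and 183 to 293 FPKM in the knockouts. Dcn and Ecm1 made up most of that sum. Of the 12 markers 8 were positive and 4 negative. By limma 4 were higher at an unadjusted p under 0.05, against 6.09% of all genes. These were Col1a1 (0.89 ± 0.25 in log2), Col1a2, Col3a1 and Pdgfrb. Pdgfrb passed the filter only through its ACSS2-HKO level. The part of these cells in Igfbp5 was not tested. Igf2r, the receptor that clears IGF2, had a log2 fold change of 0.48 ± 0.23, and Igfbp7 and Igfbp3 had 0.24 ± 0.23 and 0.10 ± 0.18. The IGF1 receptor gene Igf1r read 0.26 FPKM at most and the fetal ligand gene Igf2 0.13 FPKM, far below the insulin receptor gene.

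The receptor and substrates of the insulin pathway did not separate the genotypes. Insr (chromosome 8, 3122061 to 3279617) read 10.7, 14.2 and 12.8 FPKM in the ACSS2-flox livers and 13.0, 12.8 and 11.9 FPKM in the ACSS2-HKO livers, counted from 3378 to 4947 fragments. The means were 12.5 ± 1.76 and 12.6 ± 0.594 FPKM (SD, n = 3). Insr had a log2 fold change of 0.01 ± 0.17 with a 95% interval of -0.39 to 0.41, the narrowest of the 10 genes; its sign was negative with median-ratio (-0.109) and quantile scaling (-0.089) and with the length trend removed (-0.099). Irs1, the substrate shared with muscle and fat (chromosome 1, 82233101 to 82291416), read 2.29, 3.03 and 2.71 FPKM in the ACSS2-flox livers and 3.39, 3.47 and 1.96 FPKM in the ACSS2-HKO livers, or 0.08 ± 0.21 on the log2 scale, which was -0.016, -0.095 and -0.031 under those same settings. Its ACSS2-HKO libraries lay on both sides of the ACSS2-flox range.

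Irs2, the substrate that FOXO1 induces in fasting (chromosome 8, 10984681 to 11008458), read 2.51, 5.94 and 5.74 FPKM in the ACSS2-flox livers and 4.71, 10.6 and 1.33 FPKM in the ACSS2-HKO livers. The 2 extremes, 7.97-fold apart, were both ACSS2-HKO libraries, counted from 356 and 2582 fragments. The Irs2 difference of -0.03 ± 0.54 in log2 (exact permutation p = 1.0, p = 0.995 in limma after adjustment) had a 95% interval of -1.26 to 1.20, and leaving out 1 library at a time moved it between -0.587 and 0.571.

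Igfbp1 and Irs2 were low in the same libraries, and the part of insulin or FOXO1 in this was not tested. G6pc read 76.8, 181 and 409 FPKM in the ACSS2-flox livers and 262, 296 and 31.3 FPKM in the ACSS2-HKO livers, again lowest in ACSS2-HKO replicate 3 and ACSS2-flox replicate 1. Insr, Irs1, Irs2 and Igfbp1, 4 of the 10 axis genes, had these libraries as their lowest pair, against 16.6% of all genes tested. The sizes differed widely, since Insr spanned 1.33-fold over the 6 libraries and Irs1 1.77-fold. This division is not that of the genotypes. On the insulin-repressed list Pdk4 and Mttp also had this lowest pair, while Pck1, Trib1, Apoc3, Sesn3 and Cdkn1b did not. Pck1 read 968, 986 and 826 FPKM in the ACSS2-flox livers and 601, 963 and 672 FPKM in the ACSS2-HKO livers. Insr and Irs1, counted over 9391 and 9163 bases, belong to the longest 10% of genes. Irs2 (6794 bases), G6pc (2259) and Igfbp1 (1520) are shorter. The longest 10% read low in ACSS2-flox replicate 1 and stood at 0.045 in ACSS2-HKO replicate 3. The part of gene length in these values was not tested.

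**Figure D4:**
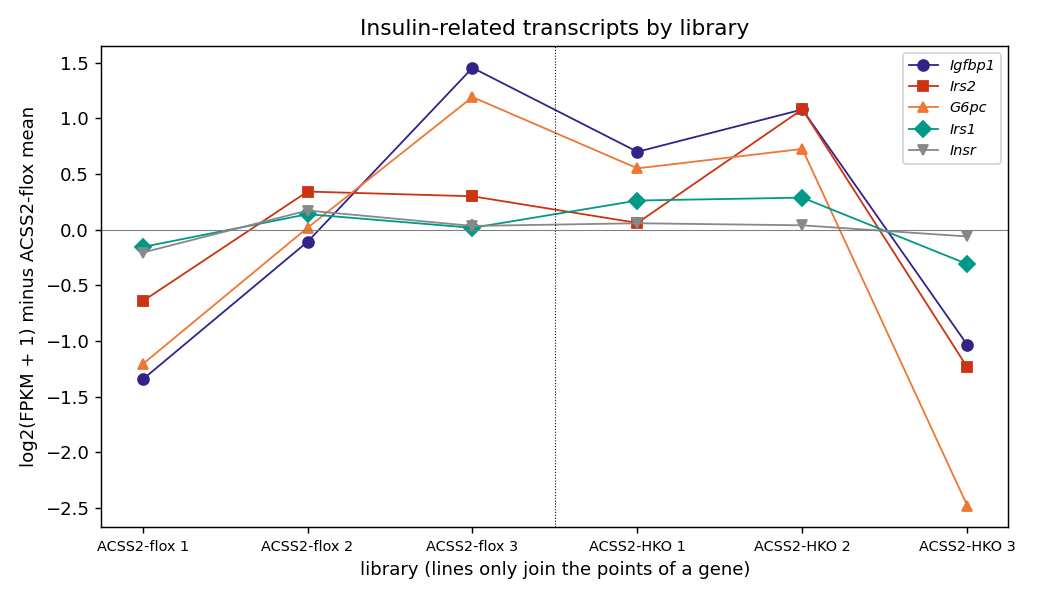
Log2(FPKM + 1) minus the ACSS2-flox mean (y axis) for Igfbp1, Irs2, G6pc, Irs1 and Insr in each library (x axis). All 5 genes are lowest in ACSS2-flox replicate 1 and ACSS2-HKO replicate 3, by the most for G6pc, Igfbp1 and Irs2.

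Genes further along the insulin pathway were read from 3 lists. Of 34 tested signalling genes 21 were positive, 12 negative and 1 (Sos1, chosen after its value was seen) at 0.0, and the log2 median was 0.06 (0.10 over all genes), with 0 past adjustment by limma. Before adjustment 1 of the 34 was lower and 1 was higher at a p under 0.05, where all genes gave 1.5% and 6.09%, so the list was near the background. Foxo3, a FOXO factor, read 6.53, 6.15 and 7.99 FPKM in the ACSS2-flox livers and 4.87, 4.55 and 4.84 FPKM in the ACSS2-HKO livers (-0.45 ± 0.17). Ptpn1, the phosphatase that switches the insulin receptor off, read 3.08, 5.22 and 4.47 FPKM in the first group and then 5.25, 6.32 and 11.8 FPKM (0.69 ± 0.29). The groups of both did not overlap, although for Ptpn1 they all but met, at 5.22 and 5.25 FPKM. Grb14, an inhibitor bound to the receptor, and the kinase gene Akt1 had log2 fold changes of -0.44 ± 0.22 and 0.43 ± 0.23.

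Of the insulin-repressed FOXO1 targets 8 were tested, 3 positive and 5 negative, with a median of -0.37 and 0 at an unadjusted p under 0.05. The kinase-like Trib1, the gluconeogenic enzyme gene Pck1, the lipoprotein gene Apoc3 and Sesn3 had log2 fold changes of -0.54 ± 0.35, -0.34 ± 0.24, -0.44 ± 0.37 and 0.42 ± 0.43. The median of the 8 was 0.014 without ACSS2-flox replicate 3. Of the 12 insulin-induced genes 11 were negative, with a median of -0.53 and 0 past adjustment in limma. The share of negative genes over all genes tested was not counted. Pnpla3 passed the filter only through its ACSS2-flox level, which fixed its sign. Before adjustment 1 of the 12 was lower at a p under 0.05, against 1.5% of all genes. Among those of smallest p were Scd1, the stearoyl-CoA desaturase gene (-1.33 ± 0.52), the fatty acid synthase gene Fasn (-0.78 ± 0.42) and the lipogenic regulator Thrsp (-0.88 ± 0.49). Against the ACSS2-flox mean the insulin-induced list read -0.92, 0.56 and 0.44 for the ACSS2-flox libraries and -0.66, 0.05 and -0.87 for the ACSS2-HKO libraries. The low libraries were thus ACSS2-flox replicate 1 together with replicates 1 and 3 of ACSS2-HKO. The insulin-repressed list stood at -0.50, 0.04 and -0.37 in those libraries, although Apoc3 was highest in ACSS2-flox replicate 1, at 4032 FPKM. The median of the insulin-induced list stayed negative when 1 library at a time was left out, at -1.059 without ACSS2-flox replicate 1 and -0.383 without ACSS2-HKO replicate 3.

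Acute phase genes, induced in the inflamed liver and mostly encoding secreted proteins, read higher in mean. Each of the 25 had a positive log2 fold change (median 1.17). By limma 15 had an unadjusted p under 0.05, against 6.09% of all genes, and 0 passed adjustment. This list, like the others, was chosen with earlier results of these data known, so its count against all genes is no independent support. Lrg1, Orm3, Lcn2 and Itih3 had the smallest p, with log2 fold changes of 1.97 ± 0.29, 2.38 ± 0.52, 4.79 ± 1.09 and 1.01 ± 0.23. The list stood at 0.85, 0.77 and 2.42 in ACSS2-HKO replicates 1, 2 and 3, and its median was 0.714 without ACSS2-HKO replicate 3. The neutrophil and macrophage sums also peaked in that library, at 360 and 2180 FPKM. Lcn2, Saa3 and Il1rn on the list are known to be made by such cells as well, and the part of those cells was not tested. Igfbp2 was also furthest from the controls in ACSS2-HKO replicate 3, whereas Ghr in ACSS2-HKO replicate 3 (56.8 FPKM) was close to its level in ACSS2-HKO replicate 1 (59.5 FPKM). The relation of Ghr and Igfbp2 to the acute phase list was not tested.

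**Figure D5:**
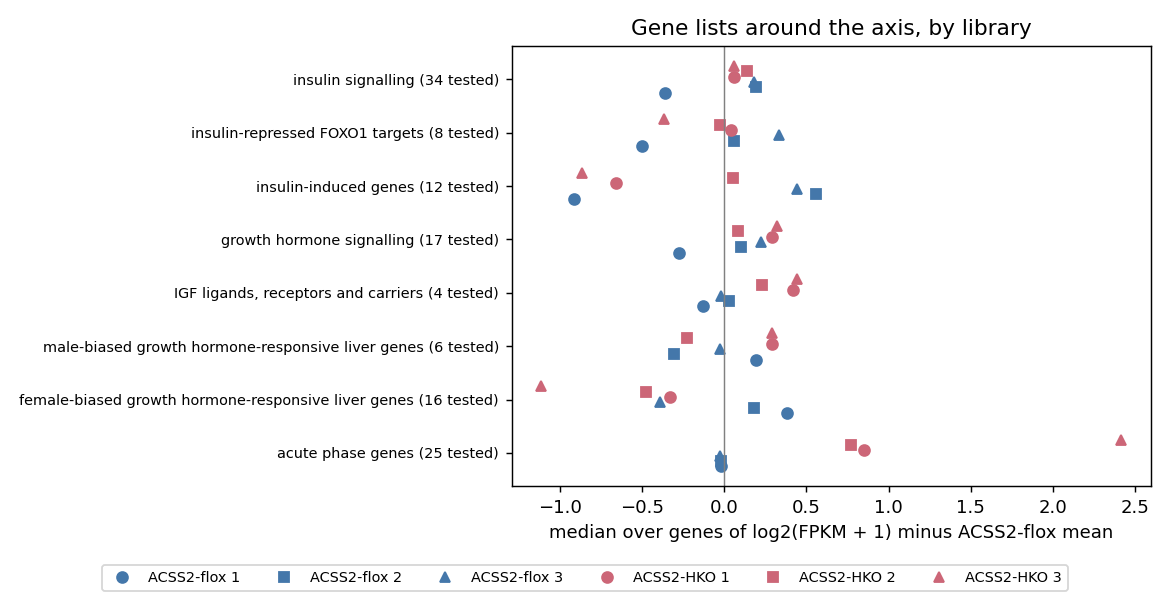
Median over the tested genes of each list of log2(FPKM + 1) minus the ACSS2-flox mean (x axis), with 1 point per library. The ACSS2-HKO points of the acute phase list lie between 0.77 and 2.42, while the insulin-induced list is low in ACSS2-flox replicate 1 (-0.92) and ACSS2-HKO replicates 1 and 3 (-0.66 and -0.87).

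Genes of the table with the most similar pattern were found by the root mean square difference of log2(FPKM + 1) values, centred on the ACSS2-flox mean, over the 6 libraries. For Igf1 these were Tmem25, Hsd17b7 and Adtrp, at distances of 0.089, 0.095 and 0.124. For Igfals they were Fetub, Apol9a and Iigp1 (0.202, 0.206 and 0.24), and for Igfbp2 they included Hagh and Hpd (0.172 and 0.175). For Igfbp1 they were Nfil3, Lhx6 and Slc34a2 (0.449, 0.466 and 0.553). These distances are not scaled to a gene's own spread, whose root mean square was 1.05 for Igfbp1 against 0.488 for Igf1, 0.575 for Igfals, 0.607 for Igfbp2 and 0.284 for Socs2. Nfil3, a basic leucine zipper repressor, read 1.05, 2.82 and 7.13 FPKM in the ACSS2-flox livers and 3.88, 8.59 and 2.45 FPKM in the ACSS2-HKO livers, lowest in ACSS2-flox replicate 1 and next lowest in ACSS2-HKO replicate 3, as Igfbp1 was. The neighbours of Socs2, Eral1, Cnpy2 and 3830406C13Rik (0.065, 0.066 and 0.076), shared its flat profile with a higher ACSS2-flox replicate 1. With 6 libraries and 9818 genes such likeness is a description only.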

How the data were processed

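Whole-liver RNA libraries, made with the VAHTS Universal V6 kit according to the labels, were deposited as gene FPKM values computed by the authors, 1 column per library. The submitters' processing notes name mm10 and DESeq2 without a role; the sources used here give no aligner, counter, annotation or filter. Whole fragments, gene lengths and library totals were recovered from the FPKM values for 16134 of 16135 genes (within 0.01 of a whole number).

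Genes averaging 1 FPKM or more were tested with limma 3.58.1 in R 4.3.3 (eBayes with trend) on log2(FPKM + 1), two-sided; the pseudocount of 1 shrinks fold changes of low genes. Single genes also had an exact permutation test over 20 arrangements. The fit and the recovery were tested on simulated data. Coordinates come from GENCODE M21 (GRCm38, the assembly of mm10), and promoters from RefSeq (GRCm38.p6).

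The axis genes and gene lists were chosen with earlier results of these data known. Named genes were the 10 axis genes, Acss2, the 4 of smallest p per list, and the 3 nearest in pattern to 5 axis genes; other genes were picked after their values were seen. Of the genes this rule names, 2 are not reported here. Alternatives covered pseudocount, filter, scaling, variance model, gene length, voom, replicate number and libraries left out; the length correction that keeps each library's mean was chosen after seeing the data.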

Additional observations from a re-analysis of the deposited data

How the results depend on the processing

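Over the 20 alternatives no axis gene and no gene of the pathway lists passed adjustment by limma. Over all genes 4 passed with the replicate block, and 0 to 3 with single libraries left out, the 3 without ACSS2-HKO replicate 2. Genes at an unadjusted p under 0.05 numbered 745 as reported, 1129 without a filter, 430 with a filter at 5 FPKM and 356 without ACSS2-HKO replicate 3. Their share of higher genes was 80.3% as reported, 52.3% with quantile normalization, 50.5% with the gene length trend removed, 79.4% when that correction kept each library's mean (added after seeing the data), 52.2% without ACSS2-flox replicate 1 and 58.7% without both distant libraries. Ghr, Igf1 and Igfbp2 stayed negative in all 20, while the other axis genes turned sign in at least 1 alternative. With single libraries left out the log2 fold change ran from -0.091 to 0.098 for Insr, -0.023 to 0.275 for Irs1, -0.587 to 0.571 for Irs2, -0.338 to 0.02 for Socs2, -0.545 to 0.438 for Igfals, -0.424 to 0.975 for Igfbp1 and -0.222 to -0.022 for Igfbp4. Without both distant libraries Insr read -0.054, Irs2 0.25, Igfals 0.445 and Igfbp4 0.034. Median-ratio scaling gave Insr -0.109 and Irs1 -0.016, quantile normalization gave -0.089 and -0.095 with Igfbp4 at 0.018, removal of the length trend gave -0.099 for Insr and -0.031 for Irs1, and a pseudocount of 5 gave Irs2 0.039. The cause of these turns was not tested. The replicate numbers pair nothing by the labels, and same-numbered libraries deviated with correlations over genes of 0.013, 0.003 and -0.063, so the block fit is no paired result; under it Ghr read an adjusted p of 0.478 and 2 axis genes had an unadjusted p under 0.05. The filter at 5 FPKM left out Irs1 and Socs2. The smallest fragment count of an axis gene was 356.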
